A study of Caenorhabditis elegans with 12 samples.

Results

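The transthyretin-related genes of C. elegans carry the symbol ttr and a number, and encode small proteins that in most cases enter the secretory pathway and resemble vertebrate transthyretin in sequence. Members were taken by symbol alone, as every gene of the count table named ttr with a number, leaving out ttr-52. That gave 57 of the 46726 genes listed. No measured value enters that rule, but the members were chosen with earlier results of these data known. Vertebrate transthyretin carries thyroid hormone and retinol-binding protein in blood, whereas the nematode relatives form a large family of their own, of which few members have a described function. TTR-11 bridges phosphatidylserine exposed on injured axons to the integrin INA-1 in axon regeneration, and ttr-33 protects dopaminergic neurons against oxidative stress. No function is stated here for the other members.

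RNA was sequenced from sorted cells of L3 and L4 larvae in order to ask how amphid sheath (AMsh) glia, which wrap the endings of amphid sensory neurons, respond when the cilia of those neurons are lost. The mutant is che-2(e1033), which affects a protein of intraflagellar transport, in strain OS11549, and the wild type background is strain OS4079. Animals of both genotypes carried F16F9.3pro::dsRed, whose promoter is active in AMsh glia, and were grown from arrested L1 larvae at 20 °C for 36 to 42 h in liquid with E. coli HB101. dsRed-positive cells form the AMsh fraction and dsRed-negative cells of the same size gates the non-AMsh fraction, so each library pools cells of very many animals and the non-AMsh fraction mixes all other cell types. The 4 groups, che-2 AMsh, wild type AMsh, che-2 non-AMsh and wild type non-AMsh, hold 3 libraries each, coded E30, E35 and E36. A genotype and a code together are called a culture here, and both fractions are taken as sorted from it. Values below follow the order E30, E35, E36. The labels do not say whether codes stand for separately grown animals, so p values measure only the spread between these libraries.

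The libraries held 15420762 to 26019499 counts, so that a gene without a count lay below 0.115 to 0.195 CPM (3 counts of the total, counting error only). Wild type AMsh E30 and che-2 AMsh E35 stood apart, with 14101 and 15711 genes detected against 17555 to 19298 in the others. CPM is a count scaled to 1e6 counts of its library, on totals adjusted by the trimmed mean of M values, and levels of different genes are compared per exon length as TPM, the same scale after division by exon length. Of 10 AMsh marker genes, 6 were called higher in che-2 AMsh than in che-2 non-AMsh libraries (0.5932% of all genes were called in either direction). In wild type AMsh against wild type non-AMsh libraries 5 were called higher (0.4374% of all genes in either direction). Both counts include F16F9.3, whose promoter drives the dsRed used for sorting. Their summed level was 674, 3872 and 1694 CPM in che-2 AMsh, 1236, 4259 and 4362 CPM in wild type AMsh, 201 to 214 CPM in che-2 non-AMsh and 270 to 363 CPM in wild type non-AMsh libraries.

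All 57 members are annotated as protein-coding on WBcel235, with 22 on chromosome V, 12 on X, 10 on IV, 8 on III, 3 on I and 2 on II. Their exons are short, with a summed length of 345 to 1401 bases and a median of 538 bases. Many members lie side by side, and 29 of them form 12 groups in which neighbours are at most 20 kb apart. The groups of 3 are ttr-55, ttr-56 and ttr-58 on chromosome I, ttr-3, ttr-2 and ttr-1 on III, and on V ttr-27, ttr-28 and ttr-29, ttr-24, ttr-25 and ttr-26, and ttr-11, ttr-57 and ttr-12. In the current Ensembl annotation of that build, exons of 17 members overlap exons of another gene. The strand setting of the counting is not given in the sources used here, so reads of these members and of their overlapping partners cannot be told apart.

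The family was broadly detected in both fractions. Counts were found for 47 of the 57 members in all 12 libraries, and 46 had a mean of at least 5 CPM. Per exon length, mean levels over the 12 libraries spanned 0.311 TPM for ttr-57 to 1124 TPM for ttr-16. The median member was at 41.4 TPM, against 6.27 TPM for the median of the 16690 genes tested, and 47 members lay above that value. Together the members took 0.275 to 0.585% of the counts of a library. A filter on low counts kept 56 members for testing and removed ttr-57, which had 29 counts over the che-2 non-AMsh group, 7 counts in wild type non-AMsh E36 and none in the AMsh libraries.

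The summed level of the family was 2673, 6835 and 3589 CPM in che-2 AMsh libraries. It was 4263, 3156 and 3923 CPM in wild type AMsh, 2632, 4493 and 3686 CPM in che-2 non-AMsh, and 4265, 3411 and 4313 CPM in wild type non-AMsh libraries. The 4 groups overlapped, with means of 4366 ± 2187, 3781 ± 567, 3604 ± 933 and 3996 ± 507 CPM in that order of groups (SD, n = 3 each). The highest sum came from che-2 AMsh E35, a library that stood apart, and the 2 lowest came from the E30 culture of che-2. No p is given for this sum, because it is a score over chosen genes.

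**Figure D1:**
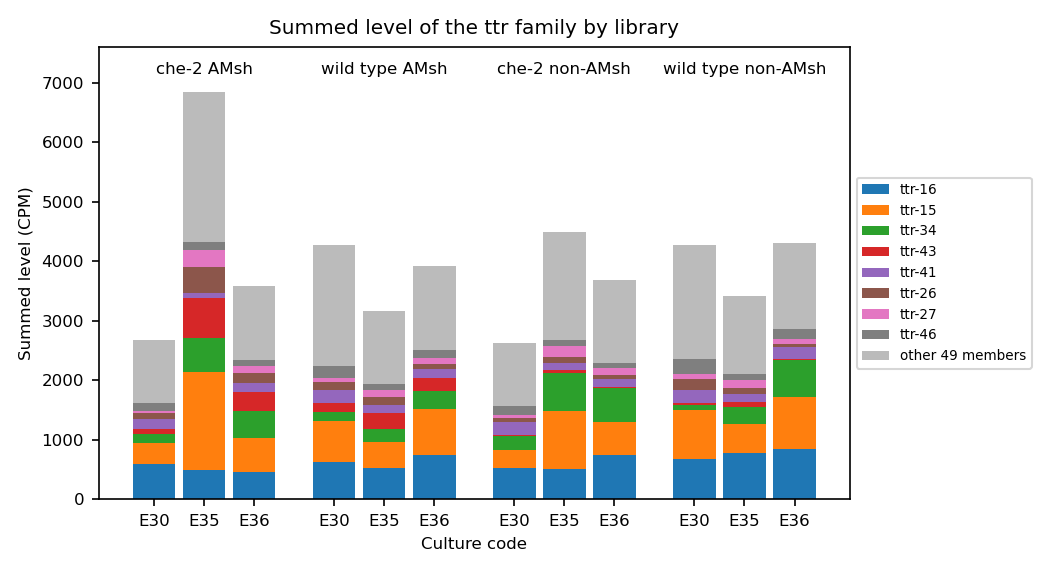
Summed CPM of the ttr family in each of the 12 libraries, grouped as che-2 AMsh, wild type AMsh, che-2 non-AMsh and wild type non-AMsh, with the 8 members of highest mean TPM in colour and the other 49 in grey. Sums ran from 2632 CPM in che-2 non-AMsh E30 to 6835 CPM in che-2 AMsh E35, and the groups overlap.

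The 8 members with the highest mean TPM supplied 52.3 to 66.3% of the family's counts in each library, and ttr-16 and ttr-15 together 28.6 to 39.6%. ttr-16 (WBGene00012382, chromosome IV, 11063512 to 11064141) was the most even of these. It was at 594, 489 and 461 CPM in che-2 AMsh, 616, 522 and 738 CPM in wild type AMsh, 519.8, 512 and 737 CPM in che-2 non-AMsh, and 670.4, 776 and 841 CPM in wild type non-AMsh libraries. Its exons overlap those of lin-3, the gene of the epidermal growth factor ligand, on the opposite strand. lin-3 had 2.04 TPM on average, and the part of shared reads in either level was not tested. ttr-15 (WBGene00011561, chromosome III, 10337840 to 10339435), at a mean of 1085 TPM, was at 348, 1651 and 564 CPM in che-2 AMsh, 695, 439.8 and 773 CPM in wild type AMsh, 311, 972 and 551 CPM in che-2 non-AMsh, and 834, 493 and 867 CPM in wild type non-AMsh libraries. Both fractions of a culture thus had like levels of ttr-15, with E35 highest in che-2 and lowest in wild type.

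ttr-34 (WBGene00045245, chromosome X, 13139861 to 13140886), at a mean of 599.6 TPM, varied between cultures more than between groups. Its levels were 157, 569.9 and 464 CPM in che-2 AMsh, 157, 213 and 304 CPM in wild type AMsh, 226, 632 and 578 CPM in che-2 non-AMsh, and 70.9, 281 and 627 CPM in wild type non-AMsh libraries. E30 was the lowest culture of ttr-34 in all 4 groups. ttr-41 (WBGene00017374, chromosome II, 4727318 to 4727871), at 309.7 TPM, was at 176, 80.4 and 151 CPM in che-2 AMsh, 219, 138 and 154 CPM in wild type AMsh, 226, 114 and 128 CPM in che-2 non-AMsh, and 219.8, 140.5 and 198 CPM in wild type non-AMsh libraries. Here the order was turned round, with E30 highest in each group and E35 lowest. None of these 4 members passed the test in any comparison.

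Next in level came ttr-26, ttr-27 and ttr-46 on chromosome V, at means of 215, 214 and 196 TPM. ttr-27 (12903552 to 12904098) was at 42.4, 288 and 115 CPM in che-2 AMsh, 59.5, 115 and 104 CPM in wild type AMsh, 49.3, 170.1 and 109 CPM in che-2 non-AMsh, and 84.0, 134 and 83.2 CPM in wild type non-AMsh libraries. ttr-46 (9951233 to 9952177) was at 129.8, 125 and 99.1 CPM in che-2 AMsh, 196, 95.9 and 134 CPM in wild type AMsh, 151, 107 and 89.6 CPM in che-2 non-AMsh, and 253, 97.6 and 167 CPM in wild type non-AMsh libraries. The groups overlapped for both. ttr-26 and the remaining member of the highest 8, ttr-43, are described with the fractions.

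**Figure D2:**
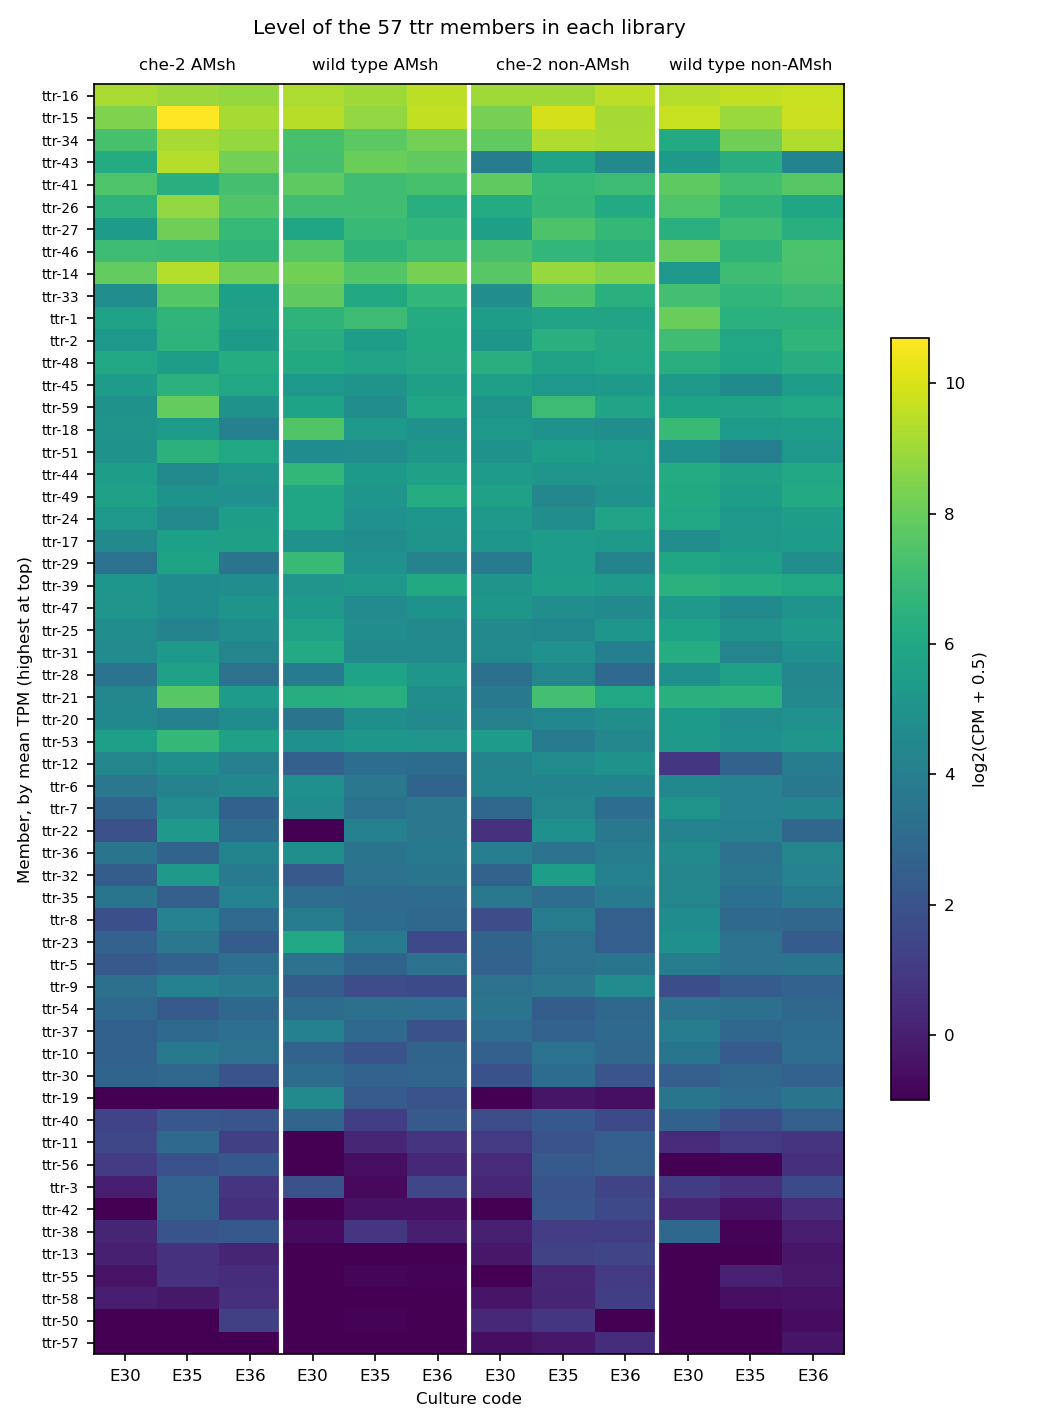
Level of the 57 members in every library as log2(CPM + 0.5), with the members ordered by mean TPM and the libraries grouped as che-2 AMsh, wild type AMsh, che-2 non-AMsh and wild type non-AMsh. ttr-16 and ttr-15 are high throughout, ttr-43 is brighter in the AMsh blocks, and ttr-19 is dark in the 6 che-2 libraries.

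The first question was whether members differ between sorted glia and other cells. Each gene was tested with edgeR's quasi-likelihood test in a model of the 12 libraries, and p values were adjusted by Benjamini-Hochberg over all 16690 genes at a threshold of 0.05. In che-2 the adjusted test called 0 of 56 members between the fractions, where 0.5932% of all genes were called. In wild type it also called 0 of 56, where 0.4374% of all genes were called. At an unadjusted p under 0.05 there were 4 members in che-2 (2.978% of all genes) and 3 in wild type (3.811% of all genes), and DESeq2 called 1 member in che-2, ttr-43 (1.049% of all genes), and 0 in wild type (0.9811% of all genes). These are pooled cells, so a difference in the share of a cell type and a difference in RNA per cell cannot be told apart.

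The log2 fold change of AMsh over non-AMsh was within 1 unit for 50 of 56 members in che-2 (89.3%, beside 84.5% of all genes) and for 48 of 56 in wild type (85.7%, beside 80.2% of all genes). Its median over the members was 0.03 in che-2 and −0.17 in wild type, beside medians over all genes of 0.0 and −0.10. In che-2, 32 members lay above 0 and 24 below, a split that became 27 against 29 with DESeq2's size factors and 25 against 31 with upper-quartile scaling. In wild type 16 lay above 0 and 40 below, which became 19 against 37 and 9 against 47 under the same scalings. Of all genes 49.7% lay above 0 in che-2 and 42.6% in wild type. Without wild type AMsh E30 and che-2 AMsh E35, the libraries that stood apart, the members' median was −0.22 in che-2, with 19 above 0 and 37 below, and −0.51 in wild type, with 11 above and 45 below. The medians over all genes were then −0.0033 and −0.081, and 45 of 56 members were within 1 unit in each genotype. Without overlap between the libraries of the fractions, 2 members were higher in che-2 AMsh, ttr-43 and ttr-53 (4.518% of all genes), and 0 were lower (3.559% of all genes). In wild type 2 were higher in AMsh libraries, ttr-14 and ttr-43 (3.739% of all genes), and 3 were lower, ttr-5, ttr-32 and ttr-35 (4.907% of all genes).

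ttr-43 (WBGene00007590, chromosome V, 12589712 to 12590655, minus strand) had the smallest p of the family in both comparisons of fractions. Its level was 72.2, 677 and 303 CPM in che-2 AMsh and 15.0, 55.6 and 21.8 CPM in che-2 non-AMsh libraries. Wild type AMsh libraries held 151, 269 and 227 CPM and wild type non-AMsh libraries 39.7, 79.1 and 18.7 CPM. The fractions did not overlap in either genotype, and the AMsh library was higher in 3 of 3 cultures of each. Per exon length this is 739 ± 552 TPM in che-2 AMsh and 457 ± 146 TPM in wild type AMsh, against 74.0 ± 47.6 TPM in che-2 non-AMsh and 100.2 ± 74.3 TPM in wild type non-AMsh libraries (SD, n = 3 each). The log2 fold change was 3.51 (SE 0.82, edgeR adjusted p = 0.136) in che-2 and 2.23 (SE 0.77, adjusted p = 0.897) in wild type, and neither passed. Without che-2 non-AMsh E35 the first was 4.18, and without wild type non-AMsh E35 the second was 2.89. By culture, the log2 ratio of AMsh over non-AMsh on the log2(CPM + 0.5) scale was 2.23, 3.59 and 3.77 in che-2 and 1.92, 1.76 and 3.56 in wild type.

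With the culture as a replicate block, which pairs the fractions of the same genotype and code, ttr-43 passed in che-2 (edgeR log2 fold change 3.24, adjusted p = 0.0265). Over all alternatives ttr-43 had an adjusted p of 0.00189 to 1.00 in che-2. It also passed without che-2 AMsh E30 (3.99, adjusted p = 0.0197), and its log2 fold change was 2.61 (adjusted p = 0.608) without che-2 AMsh E35. In wild type the adjusted p over the alternatives was 0.0850 to 1.00. The AMsh marker sum was lowest in E30 in both AMsh groups, as was ttr-43; its part in these levels was not tested. The opposite strand of the locus carries C14C10.1, whose level was 25.5 ± 8.90 CPM in che-2 AMsh and 51.9 ± 28.9 CPM in che-2 non-AMsh libraries, and 10.25 ± 6.76 CPM in wild type AMsh and 7.75 ± 7.52 CPM in wild type non-AMsh libraries (SD, n = 3 each), with no passing difference between fractions.

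The other members with an unadjusted p under 0.05 between fractions had it in a single genotype, and differences between the genotypes are tested further on. 2 of them were low and were lower in AMsh libraries: ttr-58, with no count in wild type AMsh and 10 counts in wild type non-AMsh libraries, and ttr-19, with none in che-2 AMsh and 9 counts in che-2 non-AMsh libraries. ttr-14 (WBGene00011460, chromosome X, 10787507 to 10789690) was at 298, 187 and 311 CPM in wild type AMsh and 36.9, 133 and 161 CPM in wild type non-AMsh libraries. These did not overlap (log2 fold change 1.27, SE 0.58, edgeR adjusted p = 1.00). che-2 AMsh libraries held 233, 676 and 274 CPM and che-2 non-AMsh libraries 200.3, 471 and 350.4 CPM, which overlapped. vap-2, on its opposite strand, ranged from 3.66 to 932 CPM in che-2 AMsh libraries, and its part in the ttr-14 counts was not tested.

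ttr-53 (WBGene00011773, chromosome IV, 10158036 to 10159247) was at 48.5, 109 and 51.2 CPM in che-2 AMsh and 42.8, 13.7 and 20.6 CPM in che-2 non-AMsh libraries, without overlap (log2 fold change 1.43, SE 0.45, edgeR adjusted p = 0.646). Wild type AMsh libraries held 28.9, 35.4 and 33.9 CPM of it and wild type non-AMsh libraries 37.8, 28.3 and 33.4 CPM. ttr-26 (WBGene00013079, chromosome V, 18558735 to 18560306) was at 94.4, 437 and 179.8 CPM in che-2 AMsh and 71.9, 111 and 71.3 CPM in che-2 non-AMsh libraries (log2 fold change 1.49, SE 0.56, edgeR adjusted p = 1.00). The highest value came from che-2 AMsh E35, which stood apart, and without it the log2 fold change was 0.70. Wild type AMsh libraries held 137, 139 and 80.5 CPM of it and wild type non-AMsh libraries 178, 96.8 and 58.9 CPM. For both genes the AMsh library was higher in 3 of 3 che-2 cultures and the wild type fractions overlapped, and for ttr-26 the che-2 fractions overlapped too.

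**Figure D3:**
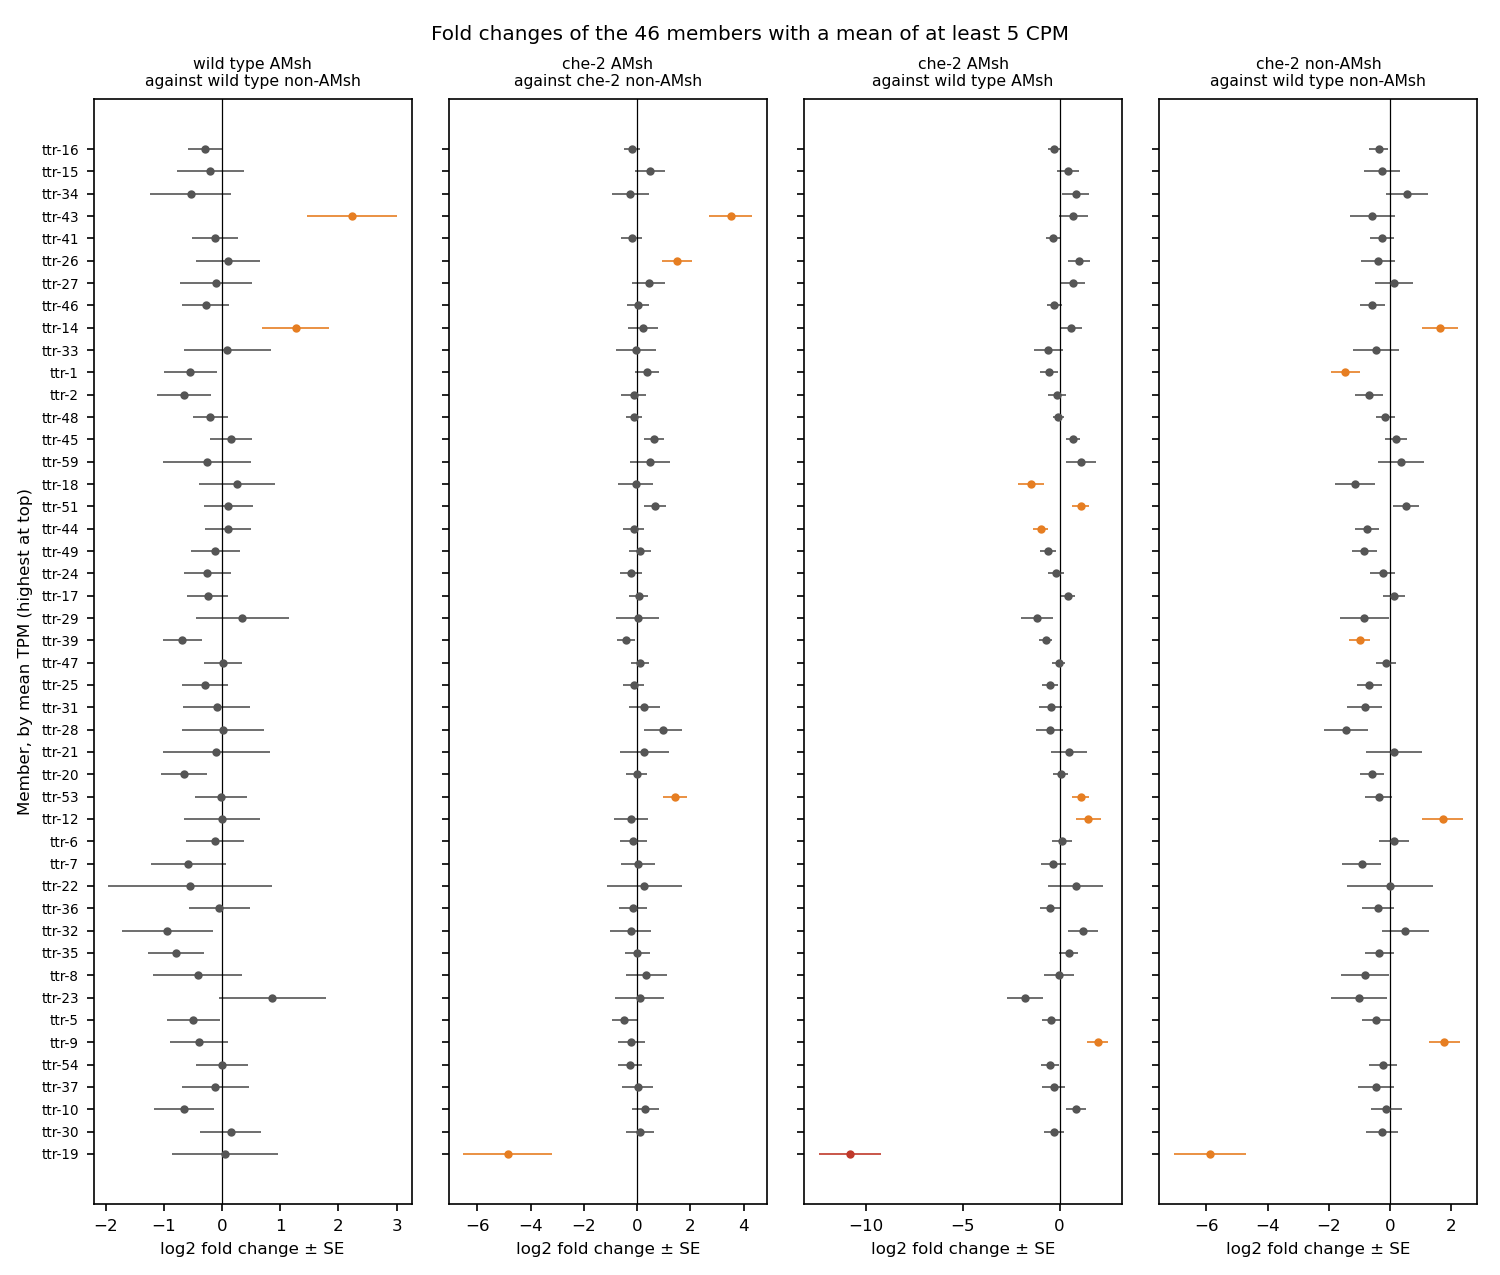
Log2 fold change with its standard error for the 46 members with a mean of at least 5 CPM in the 4 comparisons, each on its own axis. Red marks an adjusted p under 0.05, which ttr-19 alone has (−10.81 in che-2 AMsh against wild type AMsh), and orange an unadjusted p under 0.05.

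The second question was which members differed between che-2 and wild type libraries. Each genotype is 1 strain with its own cultures, so effects of mutation, strain and culture cannot be told apart. In the AMsh fraction 1 of 56 members passed, ttr-19, which was lower in che-2 (0.4614% of all genes were called by edgeR). Among non-AMsh libraries 0 of 56 passed with edgeR (0.1438% of all genes). At an unadjusted p under 0.05 there were 9 members in AMsh libraries (12.83% of all genes), of which 6 were higher and 3 lower, and 6 members in non-AMsh libraries (10.31% of all genes), 3 in each direction. DESeq2 called 4 of 56 members in the AMsh fraction, ttr-19, ttr-9, ttr-13 and ttr-58 (7.14%, beside 5.914% of all genes), and 2 of 56 in the non-AMsh fraction, ttr-19 and ttr-9 (3.57%, beside 4.585% of all genes).

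Without overlap between genotypes, 8 members were higher in che-2 AMsh libraries, ttr-9, ttr-11, ttr-12, ttr-13, ttr-53, ttr-55, ttr-56 and ttr-58 (11.29% of all genes), and 2 were lower, ttr-19 and ttr-54 (5.692% of all genes). Among non-AMsh libraries 5 were higher in che-2, ttr-9, ttr-12, ttr-13, ttr-14 and ttr-58 (12.18% of all genes), and 6 were lower, ttr-1, ttr-18, ttr-19, ttr-28, ttr-39 and ttr-44 (10.03% of all genes). The median log2 fold change over the members was 0.09 in AMsh and −0.26 in non-AMsh libraries, beside 0.12 and −0.01 over all genes. In the AMsh fraction 29 members lay above 0 and 27 below, and 28 on each side with DESeq2's size factors, where the members' median was −0.015. Without the libraries that stood apart the median was −0.029, with 27 above 0 and 29 below. Of all genes 55.3% lay above 0 in AMsh and 49.2% in non-AMsh libraries. In the non-AMsh fraction 20 lay above 0 and 36 below, also under both other scalings. Log2 fold changes were within 1 unit for 38 of 56 members in AMsh (67.9%, beside 66.2% of all genes) and 41 of 56 in non-AMsh libraries (73.2%, beside 70.7% of all genes).

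ttr-19 (WBGene00007535, chromosome V, 10226885 to 10227434, minus strand) was almost absent from che-2 libraries. Its counts were 0 in each che-2 AMsh library, against 509, 111 and 85 counts in wild type AMsh libraries, where it was at 22.7, 4.57 and 3.54 CPM. In che-2 non-AMsh libraries it had 0, 5 and 4 counts, against 250, 168 and 265 counts in wild type non-AMsh libraries, at 11.01, 7.91 and 10.8 CPM. Every wild type library thus lay above every che-2 library, and in wild type the fractions overlapped, with means of 10.27 ± 10.8 CPM for wild type AMsh and 9.91 ± 1.73 CPM for wild type non-AMsh (SD, n = 3 each).

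With 3 counts over the group in place of 0, ttr-19 was at least 226-fold lower in che-2 AMsh than in wild type AMsh libraries. It passed there (edgeR adjusted p = 0.0279). Over alternatives its adjusted p was 1.07e-09 to 0.174. Between non-AMsh groups, with means of 0.161 ± 0.149 CPM for che-2 and 9.91 ± 1.73 CPM for wild type (SD, n = 3 each), it did not pass (edgeR log2 fold change −5.89, SE 1.17, adjusted p = 0.0815). Its adjusted p over the alternatives was 2.19e-06 to 0.401. E30 gave 72.2% of its wild type AMsh counts, and without that library the bound was at least 91.8-fold and the AMsh call held (edgeR adjusted p = 0.0382). The call was lost without che-2 AMsh E30 (0.0732), E35 (0.0808) or E36 (0.127), wild type AMsh E35 (0.0545), che-2 non-AMsh E36 (0.0593) or wild type non-AMsh E35 (0.0557), and with the 6 libraries alone (0.174), whereas DESeq2 gave an adjusted p of 1.07e-09.

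Of the tested neighbours of ttr-19 on chromosome V, fipr-5, fipr-9, daf-36, fipr-4, pyt-1, fipr-7 and fipr-6, none passed between genotypes in either fraction (edgeR adjusted p = 0.385 to 0.991). daf-36, the nearest on the lower-coordinate side and a gene of dafachronic acid synthesis, was at 3.85 ± 2.12 CPM in che-2 AMsh and 3.94 ± 3.83 CPM in wild type AMsh libraries, and at 3.21 ± 0.333 CPM in che-2 non-AMsh and 8.26 ± 5.84 CPM in wild type non-AMsh libraries. Its log2 fold change in the non-AMsh fraction was −1.36 (SE 0.81, edgeR adjusted p = 0.637). fipr-4, the nearest on the other side, was at 93.6 ± 88.0 CPM in che-2 AMsh and 39.9 ± 16.7 CPM in wild type AMsh libraries, and at 85.2 ± 71.1 CPM in che-2 non-AMsh and 57.1 ± 19.4 CPM in wild type non-AMsh libraries (SD, n = 3 each).

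**Figure D4:**
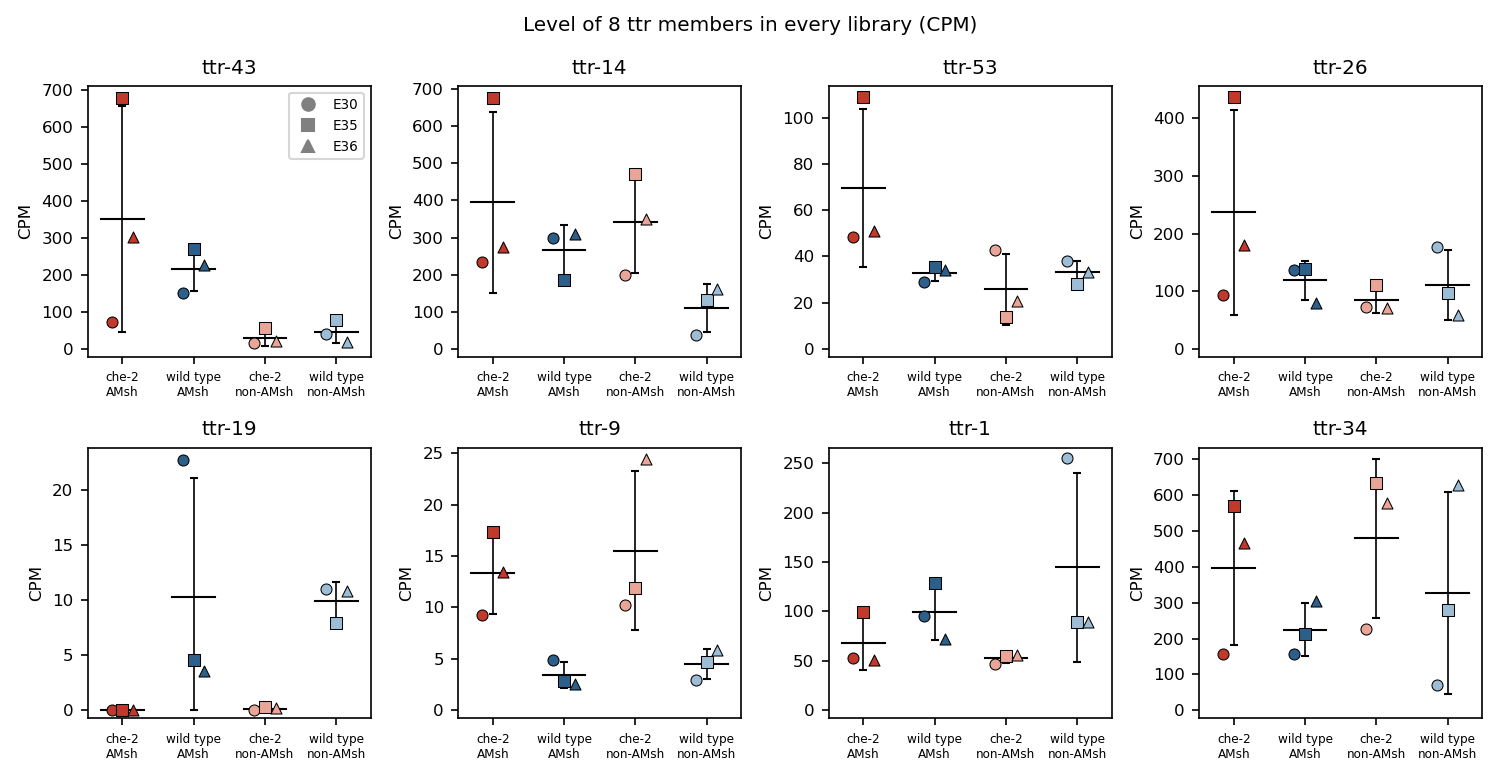
CPM of ttr-43, ttr-14, ttr-53, ttr-26, ttr-19, ttr-9, ttr-1 and ttr-34 in every library, with a panel for each gene, symbols for the codes E30, E35 and E36, a line at the mean and bars of 1 SD (n = 3), drawn no lower than 0. ttr-43 is higher in both AMsh groups, ttr-19 lies at or near 0 in che-2, and all 6 che-2 libraries lie above all wild type libraries for ttr-9.

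ttr-9 (WBGene00007888, chromosome IV, 9505543 to 9506326) was higher in che-2 in both fractions without overlap. It was at 9.32, 17.3 and 13.4 CPM in che-2 AMsh and 4.90, 2.88 and 2.54 CPM in wild type AMsh libraries. che-2 non-AMsh libraries held 10.26, 11.9 and 24.4 CPM and wild type non-AMsh libraries 3.00, 4.71 and 5.86 CPM. Its log2 fold change was 1.95 (SE 0.52, edgeR adjusted p = 0.143) in AMsh and 1.78 (SE 0.52, adjusted p = 0.202) in non-AMsh libraries. It passed with DESeq2 in both (adjusted p = 0.00820 and 0.0131), where over all alternatives adjusted p was 0.00820 to 0.465 in AMsh and 0.0131 to 0.735 in non-AMsh libraries.

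ttr-1 (WBGene00010541, chromosome III, 9929060 to 9930455) had the third smallest p in the non-AMsh fraction. It was at 46.7, 55.5 and 55.8 CPM in che-2 non-AMsh and 255, 88.9 and 89.6 CPM in wild type non-AMsh libraries, without overlap (log2 fold change −1.46, SE 0.46, edgeR adjusted p = 0.252). The value of wild type non-AMsh E30 was the highest, and without that library the log2 fold change was −0.76. che-2 AMsh libraries held 53.01, 99.6 and 51.5 CPM and wild type AMsh libraries 95.6, 129 and 72.7 CPM, which overlapped. Its neighbours ttr-2 and ttr-3 had overlapping groups in both fractions.

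ttr-33, the gene of dopaminergic neuron protection (WBGene00016505, chromosome V, 7837088 to 7837935), did not separate any groups. It was at 26.1, 195 and 47.8 CPM in che-2 AMsh, 225, 68.7 and 107 CPM in wild type AMsh, 27.2, 164 and 86.3 CPM in che-2 non-AMsh, and 148, 103 and 126 CPM in wild type non-AMsh libraries. The log2 fold change of che-2 over wild type was −0.58 (SE 0.75, edgeR adjusted p = 0.806) in AMsh and −0.45 (SE 0.75, adjusted p = 0.921) in non-AMsh libraries. Without che-2 AMsh E35 the AMsh value was −1.85, without wild type AMsh E30 it was 0.022, and without che-2 non-AMsh E35 the non-AMsh value was −1.19. Its exons overlap those of txt-5 on the same strand.

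ttr-11 (WBGene00009758, chromosome V, 20603366 to 20604378), the axon regeneration gene, was low in all libraries. It was at 2.27, 7.54 and 1.84 CPM in che-2 AMsh and 0, 0.700 and 1.21 CPM in wild type AMsh libraries, without overlap (log2 fold change 2.60, SE 1.20, edgeR adjusted p = 0.391). That was 1.68 without che-2 AMsh E35 and 3.44 without wild type AMsh E36. che-2 non-AMsh libraries held 1.51, 3.48 and 5.16 CPM and wild type non-AMsh libraries 0.837, 1.51 and 1.18 CPM, which overlapped (log2 fold change 1.52, SE 1.15, edgeR adjusted p = 0.743). Its partner integrin gene ina-1 is among 13 genes of corpse recognition and engulfment, of which 0 passed with edgeR or DESeq2 in any of the 5 comparisons, and 0 had an unadjusted p under 0.05 with edgeR.

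ttr-12, beside ttr-11 on chromosome V (20607804 to 20608520), was at 19.2, 27.6 and 16.5 CPM in che-2 AMsh and 5.57, 8.82 and 8.197 CPM in wild type AMsh libraries. che-2 non-AMsh libraries held 18.5, 24.5 and 31.6 CPM and wild type non-AMsh libraries 1.28, 6.12 and 15.2 CPM. Neither fraction overlapped between genotypes, and the log2 fold change was 1.49 in AMsh and 1.72 in non-AMsh libraries (SE 0.66 and 0.67, edgeR adjusted p = 0.375 and 0.365). Without wild type non-AMsh E36 the non-AMsh value was 2.75. ttr-57 lies between them, and the sum of the 3 genes was 24.98 ± 8.90 CPM in che-2 AMsh and 8.16 ± 2.25 CPM in wild type AMsh libraries. It was 28.7 ± 8.77 CPM in che-2 non-AMsh and 8.81 ± 7.36 CPM in wild type non-AMsh libraries (SD, n = 3 each).

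On chromosome I, ttr-55, ttr-56 and ttr-58 (6145455 to 6148836) lie on the plus strand. Exons of ttr-55 and ttr-56 overlap in the Ensembl annotation but not in the deposited positions, so the split of counts between them is uncertain. ttr-58 had 11, 6 and 28 counts in che-2 AMsh libraries and none in wild type AMsh libraries, which makes it at least 15.6-fold higher, or 9.97-fold without che-2 AMsh E36 (edgeR adjusted p = 0.187 with all libraries). ttr-56 had 34, 59 and 117 counts in che-2 AMsh and 0, 5 and 19 counts in wild type AMsh libraries (log2 fold change 3.16, SE 1.61, edgeR adjusted p = 0.445), or 4.78 without wild type AMsh E36. ttr-55 had 51 counts in the che-2 AMsh group and 3 in the wild type AMsh group, a ratio of 17.7 with a counting interval of 5.73 to 88.7 (95%), and did not pass the test over libraries (SE 1.88 on the log2 scale, edgeR adjusted p = 0.398). The 3 genes summed to 4.39 ± 1.97 CPM in che-2 AMsh and 0.374 ± 0.423 CPM in wild type AMsh libraries, and to 5.15 ± 3.74 CPM in che-2 non-AMsh and 0.810 ± 0.814 CPM in wild type non-AMsh libraries (SD, n = 3 each). ttr-13, farther along chromosome V (20635943 to 20636576), had 12, 19 and 18 counts in che-2 AMsh and none in wild type AMsh libraries, at least 17.02-fold higher (edgeR adjusted p = 0.211), and its exons overlap Y44A6B.3 on the same strand.

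Sperm genes had higher summed levels in every che-2 library than in any wild type library of the same fraction. The summed level of 10 sperm genes was 321, 789 and 530 CPM in che-2 AMsh and 86.6, 123 and 147 CPM in wild type AMsh libraries, and 274, 1060 and 1076 CPM in che-2 non-AMsh and 69.6, 125 and 254 CPM in wild type non-AMsh libraries. Of the 10, 0 passed with edgeR in either fraction, at a median log2 fold change of 2.16 in AMsh and 2.01 in non-AMsh libraries. At an unadjusted p under 0.05 there were 8 in AMsh (12.83% of all genes) and 7 in non-AMsh libraries (10.31% of all genes). DESeq2 called 4 in each (5.914% and 4.585% of all genes). The same shares of all genes stand beside the counts of the lists that follow. Of 10 germ line genes 0 passed with edgeR, at medians of 0.67 and 0.90, with 2 and 3 at an unadjusted p under 0.05 and 0 and 1 called by DESeq2. The summed level of 9 intestine genes was 2234 to 4491 CPM in che-2 AMsh and 6322 to 7218 CPM in wild type AMsh libraries. It was 2591 to 4804 CPM in che-2 non-AMsh and 6824 to 8217 CPM in wild type non-AMsh libraries. Of the 9, 0 passed with edgeR in either fraction, at medians of −0.42 in AMsh and −0.39 in non-AMsh libraries. There were 1 and 3 at an unadjusted p under 0.05, and DESeq2 called 1 in each. The median log2 CPM of these genes overlapped, at 5.42 to 6.07 in che-2 AMsh and 5.06 to 7.59 in wild type AMsh libraries. It was 5.27 to 6.08 in che-2 non-AMsh and 4.63 to 7.45 in wild type non-AMsh libraries. For 3 coelomocyte genes the median log2 fold change was −1.50 in AMsh and −1.70 in non-AMsh libraries. Of these, 0 passed with edgeR, 2 had an unadjusted p under 0.05 in each fraction, and DESeq2 called 1 and 0. Of 8 pharynx genes phat-4 passed, higher in che-2 AMsh (log2 fold change 2.22, edgeR adjusted p = 0.0374). The 8 had medians of 0.32 in AMsh and 0.33 in non-AMsh libraries, and 0 passed in the latter. Of the genes of hypodermis, neurons, body wall muscle and other glia, 0 passed with edgeR in either fraction. Their medians were −0.54, −0.41, −0.06 and −0.62 in AMsh and −0.33, −0.64, −0.32 and −0.42 in non-AMsh libraries. The part of these cell types in the levels of ttr-9, ttr-11, ttr-12, ttr-13, ttr-55, ttr-56 and ttr-58 was not tested.

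**Figure D5:**
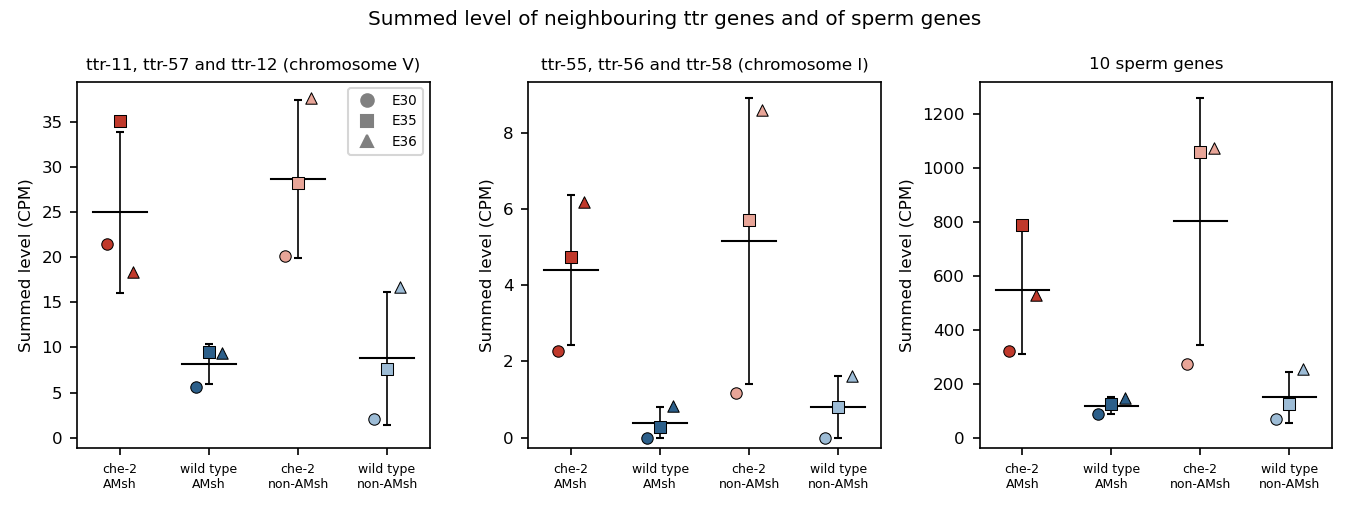
Summed CPM of ttr-11, ttr-57 and ttr-12 on chromosome V, of ttr-55, ttr-56 and ttr-58 on chromosome I, and of 10 sperm genes in every library, with a line at the mean and bars of 1 SD (n = 3), drawn no lower than 0. In each panel the 3 che-2 AMsh libraries lie above the 3 wild type AMsh libraries. In the non-AMsh fraction the chromosome I sums overlap between genotypes (1.16 CPM in che-2 E30, 1.63 CPM in wild type E36).

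The third question was whether the difference between genotypes was unlike in the 2 fractions. The test of the difference between the che-2 changes called 0 of 56 members, as it called 0.0% of all genes with edgeR, and DESeq2 also called 0 members (0.0207% of all genes). At an unadjusted p under 0.05 there were 2 members (1.684% of all genes), ttr-53 and ttr-19. For ttr-53 the AMsh change exceeded the non-AMsh change by 1.45 on the log2 scale (SE 0.63, edgeR adjusted p = 1.00), and for ttr-19 the fitted difference rests on a group at 0 and is no measure of its size. ttr-58 came next, with a wild type AMsh group at 0 (edgeR adjusted p = 1.00). The median difference over the members was 0.30, beside 0.11 over all genes, with 42 members above 0 and 14 below (75.0% above, beside 57.3% of all genes), or 36 and 20 with DESeq2's size factors (51.4% of all genes above).

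Levels of many members also differed between the cultures of a genotype. For the 46 members with a mean of at least 5 CPM, levels were averaged over the fractions of each culture, and the highest culture was set over the lowest. This fold had a median of 2.04 in che-2 and 1.83 in wild type, beside 1.76 and 1.83 for 10401 genes at the same level. It reached 15.6 for ttr-22 in che-2 (2.18, 34.03 and 10.4 CPM) and 12.5 for ttr-23 in wild type (45.1, 11.8 and 3.61 CPM). In che-2, 10 members differed over 4-fold between cultures (21.7%, beside 13.8% of all genes at that level), among them ttr-21 (16.7, 172 and 51.7 CPM), ttr-43 (43.6, 367 and 163 CPM) and ttr-33 (26.6, 179 and 67.1 CPM). In wild type 2 did (4.35%, beside 11.6%). ttr-16 was the steadiest of the abundant members described, at 1.196-fold in che-2 and 1.23-fold in wild type.

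The order of the cultures was often shared by the fractions. It was the same in both for 25 of the 46 members in che-2 and 24 in wild type, or 54.3% and 52.2%, beside 35.9% and 32.1% of all genes at that level. In che-2 the E35 culture was the highest for 29 members (63.0%, beside 39.5% of all genes) and E30 the lowest for 26 (56.5%, beside 35.8%). In wild type E30 was the highest for 25 members (54.3%, beside 36.4%) and E35 the lowest for 26 (56.5%, beside 33.7%). The culture highest for most members thus held che-2 AMsh E35 in che-2 and wild type AMsh E30 in wild type, the libraries that stood apart. In the non-AMsh fraction alone, an alternative chosen after seeing the data that holds neither library, E35 was highest for 25 members in che-2 (54.3%, beside 33.1% of all genes) and E30 lowest for 26 (56.5%, beside 36.1%). In wild type non-AMsh libraries E30 was highest for 30 (65.2%, beside 33.1%) and E35 lowest for 27 (58.7%, beside 33.2%).

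Molting genes moved with the che-2 cultures. The summed level of 20 molting genes was 5481, 661 and 1455 CPM in che-2 AMsh, 3424, 3701 and 4059 CPM in wild type AMsh, 4402, 729 and 1213 CPM in che-2 non-AMsh, and 3506, 3288 and 3152 CPM in wild type non-AMsh libraries. It was thus highest in the che-2 culture in which most ttr members were lowest, and its part in their levels was not tested. Of the 20 genes, 0 passed in any of the 5 comparisons with edgeR or DESeq2, and between genotypes 1 in AMsh and 2 in non-AMsh libraries had an unadjusted p under 0.05 with edgeR.

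R09H10.3, a gene with a transthyretin-like fold but no ttr symbol, encodes a probable 5-hydroxyisourate hydrolase of purine breakdown. At a mean of 570.5 TPM it lay near ttr-34 (599.6 TPM) and below ttr-16 and ttr-15 (1124 and 1085 TPM). It was at 292, 200.5 and 165 CPM in che-2 AMsh, 600.4, 273 and 464 CPM in wild type AMsh, 247, 253 and 188 CPM in che-2 non-AMsh, and 545, 285 and 549 CPM in wild type non-AMsh libraries. The genotypes overlapped in AMsh libraries and not in non-AMsh libraries, and neither change passed (log2 fold change −1.02 and −1.002, SE 0.40 in both, edgeR adjusted p = 0.303 and 0.384). Its relative ZK697.8 was at 1.99 TPM on average. ZK697.8 had 0.490, 5.51 and 1.66 CPM in che-2 AMsh and 0, 1.73 and 1.08 CPM in wild type AMsh libraries. It had 0.348, 0 and 0 CPM in che-2 non-AMsh and 0 CPM in each wild type non-AMsh library. Neither difference between fractions passed with edgeR.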

How the data were processed

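Counts of reads per gene were deposited by the authors for 12 libraries, whole numbers with no normalisation, beside a summed exon length per gene. Per the submitters' processing notes, the authors used CASAVA 1.8.2, FastQC, STAR 2.3, WBcel235 and featureCounts; annotation release, strand setting and read filters are not given in the sources used here. Libraries were grouped by title, and replicate codes were taken from titles, since replicate numbers in the titles conflict. For the E35 columns, whose names carry another code, the header lines above them were used.

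Counts were scaled with TMM, filtered with filterByExpr (16690 genes kept) and fitted with edgeR 4.0.16 in R 4.3.3 as 1 model of 4 groups (glmQLFit, glmQLFTest, 2-sided, 8 residual degrees of freedom, common biological coefficient of variation 0.732), with Benjamini-Hochberg adjustment over all genes in each of 5 comparisons. The fit was also run on simulated counts, drawn independently for each library, with changes set only in genes above 5 CPM. That run does not bear on groups without counts or on paired fractions. TPM was computed from the deposited lengths. Exon overlaps came from the Ensembl annotation of WBcel235. SE is the log2 fold change divided by the root of F. Positions are those of the deposited table, and gene names those of the reference tables. Folds written "at least" take 3 counts over a group in place of 0. Intervals and floors cover counting error only; the reads were amplified and carry no molecular identifiers, so they are not independent. Ratios with 1 to 3 counts have exact 95% intervals. Alternatives were other scalings, no filter, DESeq2 1.42.0, 6 libraries alone, replicate blocks and left-out libraries. Tables and figures used Python 3.11.15, pandas 2.3.3, scipy 1.17.1 and matplotlib 3.10.9.

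The members and lists were chosen with earlier results of these data known. Members named with every library were the 8 with the highest mean TPM, ttr-33 and ttr-11, and in each comparison those passing and the 3 with the smallest p. Of the groups of neighbours, sums are given only for that of ttr-11 and that of ttr-58, both higher in che-2 AMsh than in wild type AMsh libraries. The other groups had mean sums higher in some cases and lower in others, and their sums are not given. ttr-13, ttr-21, ttr-22 and ttr-23 were named after their values were seen. After removal of group means, deviations of the 2 fractions of a culture correlated across genes at 0.159 to 0.503 in che-2 and 0.203 to 0.273 in wild type, so culture pairs the fractions; between genotypes a code is a shared number only. Protein sequences and promoters were not used here, so the planned sequence groups and motif search were not run.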

Additional observations from a re-analysis of the deposited data

Results flagged for a closer look

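ttr-15 had opposite mean directions between fractions in the genotypes. Its mean log2 ratio of AMsh over non-AMsh libraries, on the log2(CPM + 0.5) scale, was 0.32 in che-2 cultures, above 0 in 3 of 3, and −0.197 in wild type cultures, below 0 in 3 of 3. The che-2 ratios were 0.16, 0.76 and 0.034, and a ratio this near 0 depends on the scaling. Without che-2 AMsh E35, which stood apart, the fitted log2 fold change in che-2 turned from 0.48 to −0.42. The test of the difference between genotypes did not pass (0.68, SE 0.82, edgeR adjusted p = 1.00).

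ttr-10, a member of low level, had the same pattern. The mean log2 ratio was 0.26 in che-2 cultures, above 0 in 3 of 3, and −0.56 in wild type cultures, below 0 in 3 of 3. The che-2 ratios were 0.012, 0.31 and 0.47, so that the first lay close to 0. The test of the difference gave 0.96 (SE 0.72, edgeR adjusted p = 1.00) and did not pass. Of 56 members tested, 9 were above 0 in 3 of 3 che-2 cultures (16.1%, beside 13.0% of all genes) and 4 below (7.14%, beside 14.9%). In wild type 2 were above 0 in 3 of 3 cultures (3.57%, beside 9.497% of all genes) and 13 below (23.2%, beside 18.03%).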

How the results depend on the processing

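In the fractions of che-2, where 0 members passed, 1 member (ttr-43) passed with no filter on low counts, with DESeq2, and with a replicate block by code or by culture, and 0 to 1 when a library was left out (1 without che-2 AMsh E30). In che-2 AMsh against wild type AMsh, where 1 passed (ttr-19), 4 passed with DESeq2, 0 with the 6 libraries alone and 0 to 1 when a library was left out. In che-2 non-AMsh against wild type non-AMsh, where 0 passed, 1 (ttr-19) passed with no filter, 2 with DESeq2, 1 without wild type AMsh E30 and che-2 AMsh E35 together, and 0 to 1 when a library was left out (1 without wild type AMsh E30). The causes were not tested. Shares of all genes called are given here for the main fit and DESeq2 only. Member counts under the other alternatives therefore stand without that background. The fractions of wild type and the difference between changes stayed at 0 members under the alternatives run. The replicate block by code, between genotypes a shared number only, left ttr-19 called in the AMsh fraction (adjusted p = 0.0350), and apart from ttr-43 no member's call changed under a block.

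Over all genes, calls with DESeq2 against the edgeR fit were 189 against 99 and 186 against 73 in the fractions of che-2 and wild type, and 1010 against 77 and 783 against 24 between genotypes in AMsh and non-AMsh libraries. Of 288 alternative values for 15 named tests, 269 kept direction and side of the threshold. A further 12 came to pass, 7 no longer passed and none turned direction. These tests had the smallest p of their comparison in these same data, so their steady direction does not extend to the family. Some members outside them turned between AMsh groups. Without che-2 AMsh E35 the log2 fold change went from 0.43 to −0.48 for ttr-15 and from 0.67 to −0.24 for ttr-27. Without wild type AMsh E30 it went from −0.58 to 0.022 for ttr-33. Mean family sums moved by less than 1 SD under both other scalings. With 1 library left out, a group of 2 shares the spread estimated over the other groups. Low members such as ttr-13, ttr-55, ttr-57 and ttr-58 are limited by depth.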
